A study of Homo sapiens with 20 samples.

Results

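N6-methyladenosine (m6A) peaks were examined on the transcripts of 10 immediate early transcription factor genes, FOS, FOSB, FOSL1, FOSL2, JUN, JUNB, JUND, ATF3, EGR1 and IER2, in a pair of human bladder cancer cell lines. A peak was counted for a gene when its summit lay in an annotated exon of that gene, which gave 200 peaks of the 173873 with an exonic summit, and placed these 10 genes among 13976 genes with such a peak in any library. T24 is an established bladder cancer line that is sensitive to cisplatin. T24R2 was made from it by serial exposure to that drug and is resistant. Both were labelled WT and day 3 and were grown in RPMI with fetal bovine serum. Per the study's methods T24R2 was kept in medium with cisplatin, and whether the drug was present at harvest is not given in the sources used here, so that the line and its culture with cisplatin cannot be told apart. RNA was fragmented and immunoprecipitated with an antibody against m6A (MeRIP-seq), and the authors called peaks of each pull-down over its input. There were 5 immunoprecipitated libraries of T24 and 5 of T24R2, which are compared here to ask on which of these transcripts, and where along them, peaks were called in each line.

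AP-1 is a dimer of basic leucine zipper proteins in which a FOS family member (FOS, FOSB, FOSL1 or FOSL2) pairs with a JUN family member (JUN, JUNB or JUND), and it binds short DNA elements in genes of proliferation, invasion and stress responses. ATF3 is a stress-induced zipper protein that also pairs with JUN proteins, EGR1 is a zinc finger factor, and IER2 is a nuclear protein of the same early response. Messages of many of these genes are made within minutes of a stimulus and are short-lived. The METTL3 and METTL14 methyltransferase places m6A mostly at a GGAC or related motif. This mark is one of those that YTH reader proteins use to speed decay or alter translation of messages.

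Only peak lists were analysed, so sequencing depth is unknown. A called peak needs both methylation and enough transcript, and these cannot be told apart from its presence or width. The lists held 17203 to 33120 peaks, and 4 of 5 T24R2 lists were longer than every T24 list. The genes analysed here had 16 to 23 peaks per library, and 8 or 9 of the 10 genes had one in each T24 library against 9 or 10 in each T24R2 library. Of the epithelial and urothelial marker transcripts, 4 of 11 carried an exonic peak in any library. KRT7 did so in all 10 libraries, KRT18 in 0 T24 and 2 T24R2 libraries, and GATA3, a urothelial transcription factor, in 5 T24 and 0 T24R2 libraries. For GATA3 the two-sided Fisher's exact p was 0.00794, or 0.190 adjusted over all genes. Of 13976 genes, 205 had a peak in all T24 and no T24R2 libraries. Peaks lay on 2 of 3 mesenchymal, 0 of 3 blood and 1 of 2 endothelial marker transcripts. A transcript without a peak may still be expressed.

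Stretches of RNA around the GGAC motif nearest to summits of interest are shown first, since the peaks described afterwards lie over or near them. Each is 29 nt of the MANE Select transcript (hg38, read in the sense of the gene, T for U), with the motif in capitals. The first 5 lie under peaks of all 10 libraries, at the summit clusters of FOSB in the 5′UTR, FOSL2 in the 3′UTR, JUNB and IER2 in the coding sequence (CDS), and EGR1 just past the stop codon.
FOSB, chr19:45468429-45468457, plus strand: ccgagcttccccGGACagcgtactttgag
FOSL2, chr2:28412571-28412599, plus strand: cctggctctgggGGACccaggtgggactt
JUNB, chr19:12792078-12792106, plus strand: cctacacccccgGGACagtacttttaccc
EGR1, chr5:138468124-138468152, plus strand: aagagacttaaaGGACaggaggaggagat
IER2, chr19:13153574-13153602, plus strand: ggcggggacgctGGACtggtcccgagcaa
The next 3 are from the genes that had an exonic summit in unequal numbers of T24 and T24R2 libraries, although the smallest unadjusted Fisher's exact p among them was 0.206. The A of the ATF3 motif was under a peak in 0 T24 and 5 T24R2 libraries, that of the FOSL1 motif in 1 and 5, and that of the FOS motif in 1 and 4. It lay 91 nt from the median summit of its cluster on ATF3 and 25 nt on FOSL1. On FOS it lay 110 and 119 nt from those of 2 clusters. In T24R2 replicates 2, 4 and 5 the peak over the FOSL1 motif had its summit in a neighbouring gene, CCDC85B.
ATF3, chr1:212619479-212619507, plus strand: ctcagaatgggaGGACtccagaagatgag
FOSL1, chr11:65892090-65892118, minus strand: tttgatatttttGGACtttgtcttatctg
FOS, chr14:75281145-75281173, plus strand: cgtgccagacatGGACctatctgggtcct
The last 2 are the same coding stretch in the paralogues FOSB and FOSL2, identical at 25 of 29 bases. The FOSL2 copy was under a peak in 5 T24 and 5 T24R2 libraries, and the FOSB copy in 0 and 1. The FOSB copy lay 166 nt from the median summit of the nearest FOSB cluster.
FOSB, chr19:45470685-45470713, plus strand: cacaaccagccaGGACctccagtggcttg
FOSL2, chr2:28404166-28404194, plus strand: cacgaccagccaGGACctgcagtggatgg
This pair was chosen after its values were seen. A peak marks a stretch of RNA, and the modified base itself was not located.

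GGAC stood within 50 nt of the summit on the sense strand for 99 of the 200 peaks (49.5%), against 47.9% of 165777 exonic-summit peaks of all genes in windows of the same length. Searched on the opposite strand, the windows gave 36.0% and 24.4%. The sense share of these genes was therefore close to that of all genes. Their opposite-strand share was higher, so the sense share exceeded it by less than over all genes. By gene, the sense share ranged from 11 of 11 peaks on JUNB and 27 of 40 on FOSL2 to 1 of 10 on JUN and 1 of 11 on FOS.

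A larger share of summits than on transcripts at large lay in the 5′UTR. On the MANE Select transcripts, 21.2% of 189 summits were in the 5′UTR, 49.7% in the CDS and 29.1% in the 3′UTR, against 7.17%, 61.4% and 31.4% of 138118 summits over all genes. The peaks were also wide. Their median width was 433 bp against 278 bp for all peaks with an exonic summit, and 48 of 200 spanned 1000 bp or more, against 6.60% of those peaks. These shares describe the genes and were not tested, since several peaks come from 1 transcript and the same transcripts recur in every library.

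**Figure D1:**
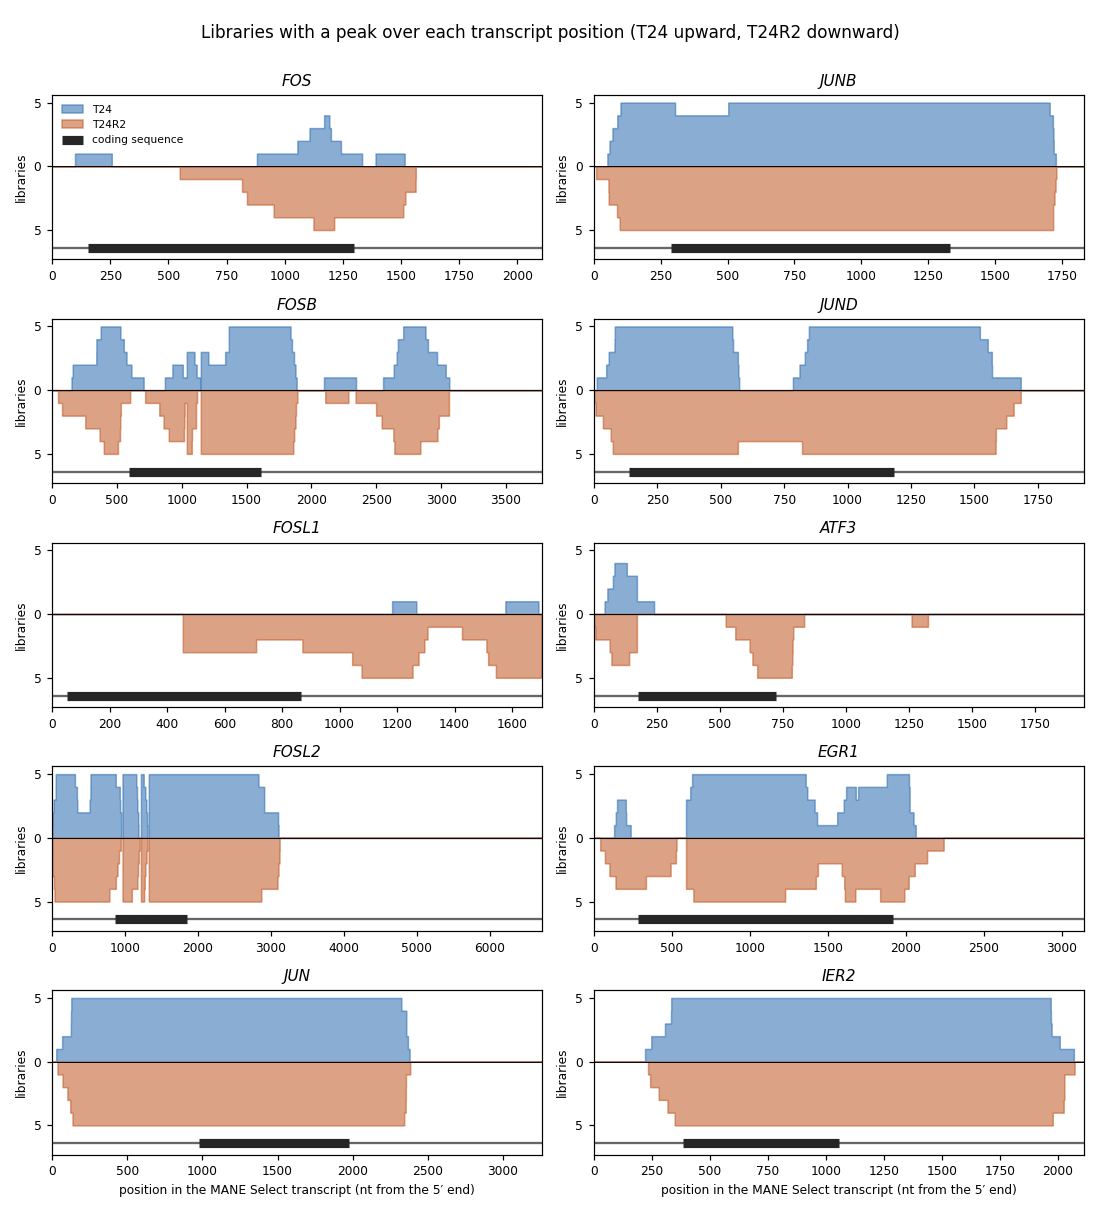
Number of libraries (5 per line) with a peak over each position of the MANE Select transcript of the 10 genes; T24 is drawn upward and T24R2 downward, and the dark bar marks the coding sequence. JUN, JUNB and IER2 were covered over the whole CDS in nearly every library, whereas the 3′ part of FOSL1 and the ATF3 stop codon were covered mainly in T24R2.

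FOSB carried the strongest peaks of the group. The highest fold enrichment of IP over input on the gene, taken as a percentile within its own list, was 80.5, 81.2, 95.6, 88.9 and 83.1 in the T24 libraries 1 to 5 and 89.9, 91.8, 90.4, 96.0 and 88.1 in T24R2. FOSB was thus high in every list, and the lines overlapped. Summits recurred at the same places in every library. The first lay at −135 nt from the start codon at the median (chr19:45468384-45468484 for all 10 summits). The second lay at the median 13 nt past the stop codon (chr19:45473005-45473044), and in 9 of 10 libraries another lay about 1069 nt past it, in the 3′UTR. FOSB encodes a FOS family subunit that has a long and a short isoform.

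A further FOSB region in the coding exons (chr19:45470618-45471298) was weaker in T24 by the authors' significance score. Its highest −log10 q was 9.38, 2.43 and 3.89 in T24 replicates 1, 2 and 3 and 8.96 in replicate 5, and replicate 4 had no peak there. In T24R2 replicates 1 to 5 it was 21.8, 13.4, 20.3, 20.4 and 16.6. All 5 T24R2 values lay above all T24 values. The share of all regions whose −log10 q separates the lines in this way was not counted. A q-value depends on sequencing depth as well as on methylation, and depth is unknown here.

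FOSL2, a FOS family subunit with a long 3′UTR, had 4 regions that were called in all 10 libraries. They covered the 5′UTR, both middle exons and the start of the last exon. The widest peak ran over 1563 to 1908 bp of the last exon, from the CDS into the 3′UTR, and stood at or above the 98.7th percentile of width in every list. Peaks covered 87.1% ± 5.43 of the CDS in T24 and 83.5% ± 8.30 in T24R2 (SD, n = 5), but only 23.1% ± 2.57 and 24.9% ± 2.22 of the 3′UTR. The 3644 nt of the transcript that were outside peaks of every library were nearly all in that 3′UTR. The fold percentile of the gene spanned 26.2 to 84.4, while its 4 regions recurred in every library.

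FOS, the founding member of the family, was covered less and less evenly. Its exonic bases under peaks were 278, 436, 0, 92 and 230 in T24 replicates 1 to 5 and 681, 746, 89, 1098 and 611 in T24R2. T24 replicate 3 had no peak on FOS, and T24R2 replicate 3 was low beside the other T24R2 libraries and overlapped with T24. As a percent of exonic length this was 6.50% ± 5.30 in T24 and 20.2% ± 11.4 in T24R2 (SD, n = 5, exact permutation p = 0.0476, adjusted p = 0.127). The difference did not pass the adjusted threshold over all genes, and without T24R2 replicate 3 it did, at 18.1 percentage points (adjusted p = 0.0413). Without any other library its adjusted p was 0.147 to 0.228. Of all genes, 17.7% were called higher without T24R2 replicate 3, and none without any other library.

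The FOS peaks shared by both lines lay over the 3′ part of the CDS and the start of the 3′UTR (chr14:75280538-75281689, mostly in the last exon). This region was called in 4 T24 and 5 T24R2 libraries. Its highest −log10 q was 3.98, 8.08, 7.75 and 4.02 in the 4 T24 libraries with a peak and 18.4, 10.3, 14.5, 12.8 and 17.6 in T24R2. The lines did not overlap, and the share of all regions for which that holds was not counted here either. With only peaks of −log10 q of at least 10, the FOS region and the FOSB coding region were therefore in 0 of 5 T24 and 5 of 5 T24R2 libraries, 2 of the 19 regions of these genes that were left. Over all regions left under that limit, 2.65% had this pattern. The fold enrichment overlapped between the lines, as FOS percentiles were 17.4 to 59.4 in T24 and 20.5 to 81.1 in T24R2.

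FOSL1, the FOS family subunit FRA-1, was the only one of the 10 genes whose covered length passed the test over all genes. Its exonic bases under peaks were 0, 0, 199, 0 and 0 in T24 replicates 1 to 5 and 417, 1076, 377, 1248 and 882 in T24R2. Every T24R2 library was above every T24 library. The cover was 2.11% ± 4.72 of the exonic bases in T24 and 42.4% ± 20.7 in T24R2 (SD, n = 5, exact permutation p = 0.00794, the smallest this design allows; Benjamini-Hochberg adjusted p = 0.0438). Higher cover in T24R2 was called for 15.4% of 13976 genes, so 1 of 10 is not above that background.

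The FOSL1 peaks were weak, and some peaks over its exon had their summit in a neighbouring gene. The region (chr11:65890616-65893403) holds the last FOSL1 exon, on the minus strand, and the single exon of CCDC85B, on the plus strand, which share no base and whose 3′ ends face each other 413 bp apart. In all 10 libraries the strongest peak had its summit in the CCDC85B exon. In T24 that peak ended before FOSL1, while in T24R2 replicates 2, 4 and 5 it ran on into FOSL1, over all 1248 bases of the exon in replicate 4. Peaks with their own summit in FOSL1 were found in 1 of 5 T24 and 4 of 5 T24R2 libraries (two-sided Fisher's exact p = 0.206) and stood between the 0.174th and 7.69th percentile of fold.

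Counting only peaks with a summit in FOSL1, the difference in cover was 22.1 percentage points in place of 40.3 (exact permutation p = 0.0476, adjusted p = 0.138), and with lists of equal length it was 33.7 (adjusted p = 0.153), so that the call was lost both ways. Of all genes, 13.9% were called higher from such own-summit peaks. By limma on log2(covered bases + 100) FOSL1 was called (adjusted p = 0.000773), as were 23.1% of all genes. When each library was left out in turn the adjusted p was 0.0413 to 0.104, and it stayed under the threshold only without T24R2 replicate 3. The lists carry no strand, and which gene gave the reads was not tested. Of the FOSL1 transcript, the 3′UTR was touched in 1 T24 and 5 T24R2 libraries and the CDS in 0 and 3.

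**Figure D2:**
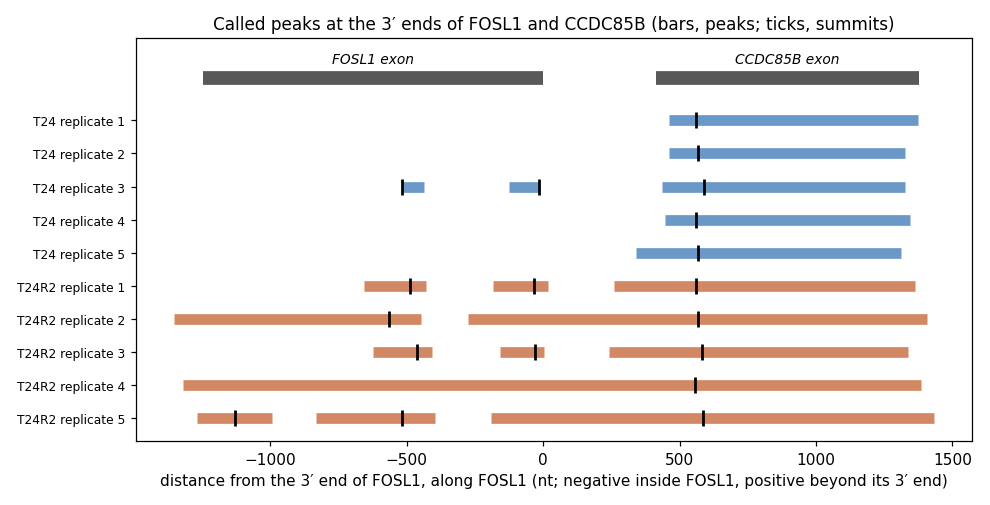
Called peaks of each library (bars, blue for T24 and orange for T24R2; ticks mark summits) against distance in nt from the 3′ end of FOSL1, with the FOSL1 and CCDC85B exons above. All 10 libraries have a summit in CCDC85B; in FOSL1 itself, T24 replicate 3 is the only T24 library with a peak.

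JUN and JUNB, each a single-exon gene, were covered by 1 long peak. On JUN, the partner of FOS in the classical AP-1 dimer, that peak was 2218 to 2307 bp wide and at or above the 99.4th percentile of width in every list. It covered 100% of the CDS in all 10 libraries. Its fold was low: the percentile was 6.32, 0.108, 29.5, 10.6 and 20.4 in T24 replicates 1 to 5 and 41.5, 12.5, 40.2, 25.6 and 10.1 in T24R2. JUN was therefore among the widest peaks of each list while its fold was below the median of that list. By −log10 q the same peak stood at the 7.04th percentile in T24 replicate 2. In every other library it stood between the 72.4th and the 95.8th. The summit lay in 9 libraries near the end of the CDS, at −21 nt from the end of the stop codon at the median, and in T24R2 replicate 3 it lay at −39 nt from the start codon.

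JUNB, a JUN family member that often restrains JUN, had a peak of 1633 to 1709 bp in every library but T24 replicate 2, where it was split in 2 with a widest piece of 1202 bp. Peaks covered 87.7% ± 6.08 of its exon in T24 and 90.8% ± 1.69 in T24R2 (SD, n = 5, exact permutation p = 0.349). Summits moved along the exon between libraries, with 4 at the start codon, 5 further into the CDS and 2 in the 3′UTR. JUNB had the highest density of GGAC of the 10 transcripts, 8.74 per kb against 2.58 per kb on ATF3, the lowest. On JUNB 14 of 16 motifs were under peaks in all 10 libraries, as were 76.8% of the bases of the transcript.

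JUND, the JUN family member that is expressed most steadily in resting cells, was also a single exon but was cut differently in the lines. All 5 T24 libraries had 2 peaks with a gap in the CDS, whereas T24R2 had 1 peak of 1577 to 1647 bp in 4 libraries and 2 peaks in replicate 3. The cover was 66.0%, 63.0%, 64.6%, 71.0% and 62.0% in T24 and 85.4%, 82.1%, 67.7%, 81.8% and 81.9% in T24R2. Only T24R2 replicate 3 lay within the T24 range. The difference was 14.4 percentage points (exact permutation p = 0.0159, adjusted p = 0.0663). Without T24R2 replicate 3 it was 17.5 points (adjusted p = 0.0413), past the threshold, as for 17.7% of all genes, and without any other library the adjusted p was 0.0726 to 0.104. The difference was 29.6 points with −log10 q of at least 10 or a fold of at least 4 (adjusted p = 0.0870 and 0.0793 by the exact permutation test). The log2 difference of the highest fold on JUND was −0.38 (SE 0.23, limma adjusted p = 0.492), and with the mean fold over its peaks it was 0.11. The highest fold, here and below, mixes sites. It came from the 5′ peak in T24 replicates 2 to 5 and T24R2 replicate 3. At the summit cluster in the 3′ part of the CDS, the fold was 8.2, 4.8, 2.6, 4.5 and 2.0 in T24 replicates 1 to 5. In T24R2 it was 5.4, 11.6, 4.2, 9.6 and 6.0 there, and the lines overlapped.

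ATF3 held the single region of the group with a peak in every library of 1 line and in no library of the other. At its stop codon (chr1:212619327-212619668, mostly in the last exon), peaks were present in 0 of 5 libraries of T24 and in 5 of 5 of T24R2 (two-sided Fisher's exact p = 0.00794, the smallest this design allows, and 0.195 when adjusted over 43676 regions). Its fold was 3.00, 7.86, 6.45, 13.4 and 6.29 in T24R2 replicates 1 to 5, from the 3.92nd to the 88.3rd percentile, so replicate 1 was weak and replicate 4 strong. Summits of all 5 lay within 91 bp, at the median 29 nt past the stop codon, and the motif shown above lay at −62 nt from the end of the stop codon. No T24 library had a peak on the ATF3 3′UTR.

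This pattern was 1 of the 22 regions of these genes and 3.02% of all regions. No region of the 43676 passed the adjusted threshold by Fisher's exact test, and 4021 had an unadjusted p under 0.05. With −log10 q of at least 5 or 10, a fold of at least 4 or lists of equal length, the ATF3 region was in 4 of 5 T24R2 libraries, replicate 1 having dropped out, and in 0 T24 libraries each time. At the other end of ATF3, the first exon had a peak in 4 T24 and 4 T24R2 libraries. Over the gene, cover was 0%, 4.63%, 2.38%, 3.20% and 1.23% in T24 and 3.90%, 11.7%, 6.28%, 9.80% and 9.55% in T24R2 (exact permutation p = 0.0159, adjusted p = 0.0663). The lines overlapped at T24R2 replicate 1. By limma on log2(covered bases + 100) the ATF3 difference passed the threshold (adjusted p = 0.0171), and 23.1% of all genes were called higher that way. Its adjusted p was 0.0502 to 0.250 in the other settings that did not use the replicate numbers.

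EGR1 was the second strongest of the group, with a median percentile of 79.3 over all libraries. A summit at the median 26 nt past the stop codon (chr5:138468040-138468119) was found in all 10 libraries, and a coding region upstream of it was covered in all 10. In T24 replicate 4 and T24R2 replicates 2 and 4 that summit lay at the end of the CDS. The fold percentile was 61.0, 83.9, 77.8, 84.9 and 61.0 in T24 replicates 1 to 5 and 49.3, 77.7, 80.8, 90.4 and 94.2 in T24R2. The lines overlapped, and both the lowest and the highest library were T24R2. Cover was 40.1% ± 4.09 in T24 and 51.6% ± 15.2 in T24R2 (SD, n = 5, exact permutation p = 0.127), with T24R2 replicate 3 the lowest of all at 26.8%. Without that library the difference was 17.7 percentage points and passed the adjusted threshold (exact permutation adjusted p = 0.0413), as for 17.7% of all genes. Without any other library it was 8.76 to 12.9 points (adjusted p = 0.264 to 0.450). Coverage of the 5′UTR was 16.1% ± 15.0 and 55.5% ± 33.5, and a peak was called there in 3 T24 and 4 T24R2 libraries.

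IER2 was covered over its whole CDS in all 10 libraries by a peak of 1630 to 1792 bp that ran on over most of the 3′UTR, 89.3% ± 4.08 in T24 and 92.0% ± 3.16 in T24R2 (SD, n = 5). All 13 GGAC motifs of its transcript were under peaks in all 10 libraries, as were 76.8% of the bases of that transcript. Over the gene, the highest fold percentile was 17.2, 63.9, 9.90, 21.2 and 45.0 in T24. In T24R2 it was 62.3, 63.7, 20.5, 45.7 and 76.1. The lines overlapped. Annotated exons of 2 antisense noncoding RNAs, ENSG00000267598 and ENSG00000287296, lie under the IER2 summits, the first in 10 libraries and the second in 9, and without strand their part in the peaks was not tested. A smaller IER2 region (chr19:13152271-13152562), off the MANE Select exons, was called in 4 T24 and 5 T24R2 libraries. It held the highest fold of the gene in T24 replicates 3, 4 and 5 and T24R2 replicates 1 and 3. The long peak stood at percentiles 1.09, 2.20, 3.46, 58.8 and 3.10 in those libraries. The fold values of IER2, here and below, therefore mix both regions.

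**Figure D3:**
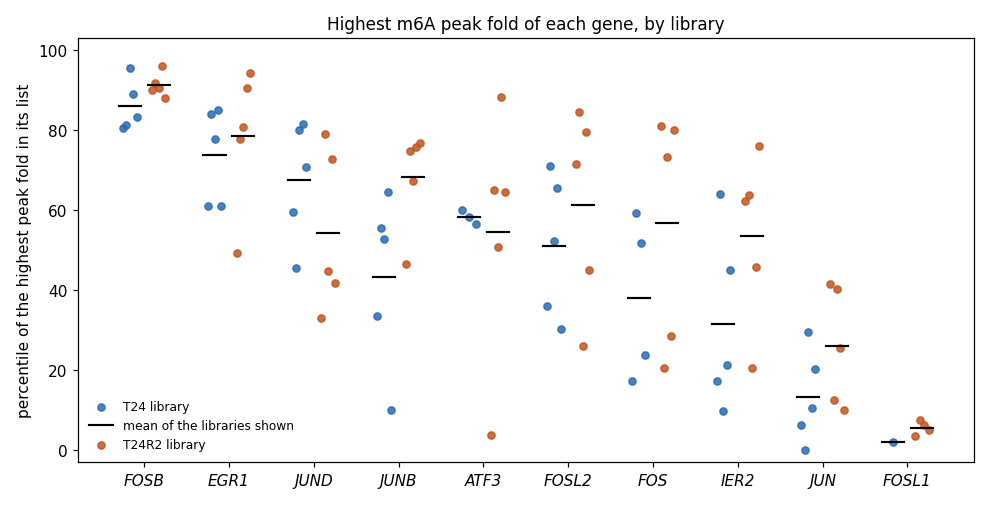
Percentile, within each list, of the highest peak fold on each gene (points, libraries with a peak; lines, their mean; blue T24, orange T24R2). FOSB libraries sit between 80.5 and 96.0, FOSL1 libraries between 2.00 and 7.69, and the lines overlap on every gene except FOSL1, where T24 has 1 library.

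In order of the median fold percentile over libraries with a peak, the genes stood at 89.4 for FOSB, 79.3 for EGR1, 65.1 for JUND, 60.0 for JUNB, 59.1 for ATF3, 58.9 for FOSL2, 51.9 for FOS, 45.3 for IER2, 16.4 for JUN and 5.15 for FOSL1. The ranges of neighbours overlapped throughout. Those of FOSB (80.5 to 96.0) and JUN (0.108 to 41.5) did not overlap. Members of the FOS family stood at both ends of this order.

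No difference in peak strength passed the test on the 7 genes that could be tested. The highest fold on each gene was compared on the log2 scale after centring each library on its median, over the 6360 genes with an exonic summit in all 10 libraries, which included FOSB, FOSL2, JUN, JUNB, JUND, EGR1 and IER2. T24R2 minus T24 was 0.37 (SE 0.23) for JUNB, 0.33 (SE 0.26) for IER2, 0.32 (SE 0.27) for JUN, 0.11 (SE 0.26) for FOSL2, 0.10 (SE 0.21) for FOSB and 0.07 (SE 0.23) for EGR1. With JUND below 0, 6 of 7 estimates were above 0, against 51.1% of all genes tested. None of the 7 passed limma's test (adjusted p from 0.492 to 0.933; unadjusted p from 0.120 to 0.767, 0 of 7 under 0.05 against 14.8% of all genes), and 1.04% of all genes passed it, 39 higher and 27 lower in T24R2. Without centring, which moved the median of all genes to 0.11, the split over all genes was 51 and 17. The median of the 7 was 0.11 and that of all genes 0.01.

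**Figure D4:**
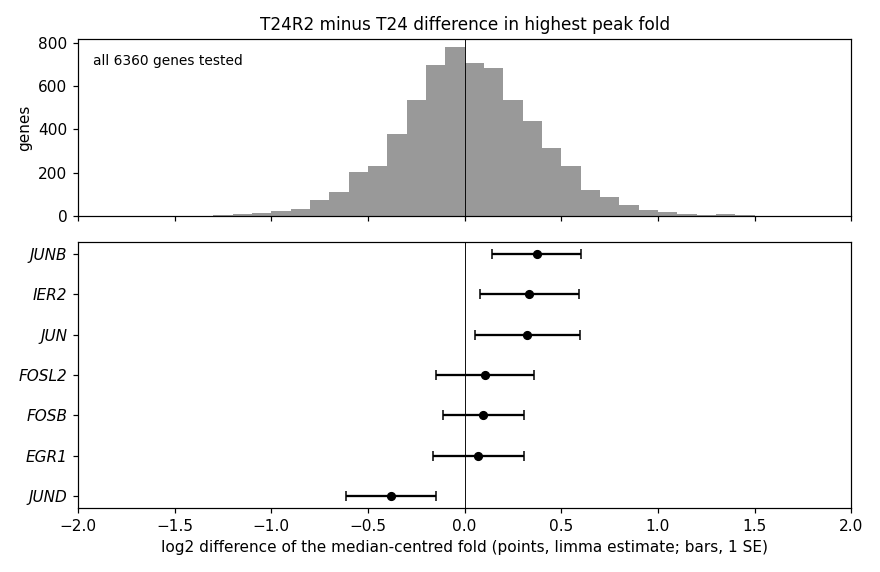
T24R2 minus T24 difference of the median-centred log2 fold: histogram of all 6360 genes tested (top) and the limma estimate with 1 SE for the 7 genes with a peak in every library (bottom). The 7 estimates lie between −0.38 and 0.37, within the bulk of all genes.

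None of the 10 genes differed in the number of libraries with a peak at an unadjusted Fisher's exact p under 0.05, against 8.94% of all genes, 6.45% being in more T24R2 libraries. Covered length was higher in T24R2 by the difference of means on all 10 genes, against 80.7% of all genes, whose median difference was 2.25 percentage points and that of the 10 genes 6.94. An unadjusted exact permutation p under 0.05 was reached by FOSL1, ATF3, JUND and FOS, 4 of 10 genes, against 33.1% of all genes. The T24R2 lists are longer. With lists of equal length the differences were 33.7 points for FOSL1 (adjusted p = 0.153 by the exact permutation test), 21.8 for JUND (0.0839), 15.5 for FOS (0.131), 4.77 for ATF3 (0.250) and 0.433 for FOSL2 (1.00). With equal lists 0 of all genes passed the adjusted exact permutation threshold, and 3774 had an unadjusted p under 0.05. On JUN the means were close, at 62.4% ± 0.951 in T24 and 62.5% ± 0.920 in T24R2 (SD, n = 5, exact permutation p = 0.921). With stricter limits, under which the JUN peak was lost from some libraries, the difference was 12.4 points (−log10 q of at least 5 or 10) or 25.3 points (a fold of at least 4, exact permutation p = 0.206).

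**Figure D5:**
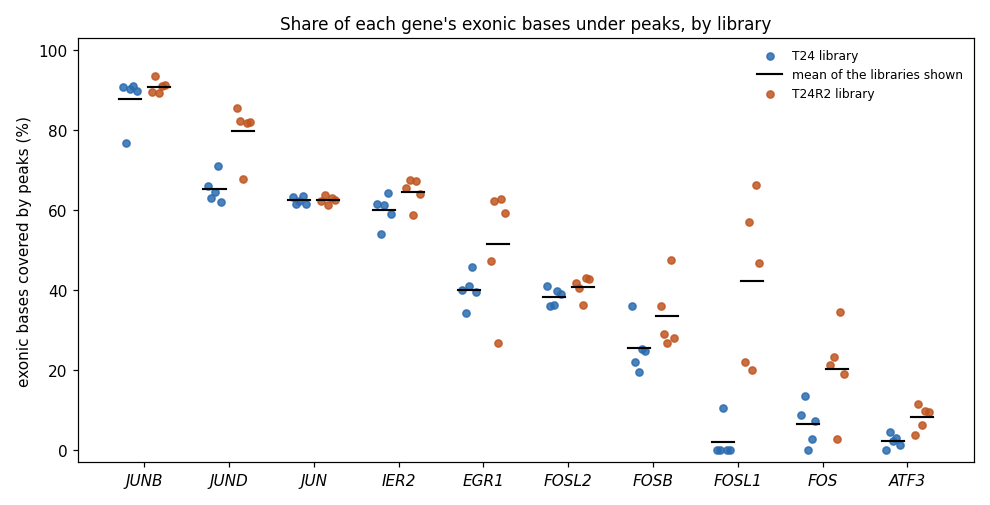
Percent of each gene's exonic bases under peaks (points, 5 libraries per line; lines, means; blue T24, orange T24R2). The T24R2 libraries lie above all T24 libraries only on FOSL1, at 19.98% to 66.1% against 0% to 10.6%, and JUN libraries span 61.2% to 63.7% over both lines.

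Other genes of the pathway were described by lists. At an unadjusted exact permutation p under 0.05, cover was higher in T24R2 for 3 of 9 partners, 12 of 20 immediate early genes, 2 of 10 regulators and 3 of 7 targets, against 33.1% of all genes. For the fold, the shares at an unadjusted p under 0.05 given next compare with 14.8% of all genes. Of 12 zipper partners of FOS and JUN proteins, 9 had a peak in any library, 4 had one in all 10, and 0 of these 4 passed limma's test (smallest adjusted p 0.515, 0 with an unadjusted p under 0.05). The median log2 difference was 0.07. The 2 with the highest mean percentile were MAFK, a small MAF protein (78.4; log2 difference −0.42, SE 0.27), and JDP2, a repressor that pairs with JUN (60.7; log2 difference 0.20, SE 0.29). MAFG, another small MAF protein, had a peak in no T24 and in 4 T24R2 libraries (two-sided Fisher's exact p = 0.0476, or 0.533 adjusted). Of 12 upstream regulators, 10 had a peak and 5 had one in all 10 libraries, with 0 of 5 called by limma, 0 at an unadjusted p under 0.05, and a median of 0.04. MRTFA, a coactivator of the serum response factor, stood highest at a mean percentile of 94.6 (log2 difference 0.34, SE 0.22), above its relative MRTFB at 70.4 (log2 difference 0.04, SE 0.21).

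Of 22 other immediate early genes, 20 had a peak and 15 had one in all 10 libraries. Of these 15, 0 passed limma's test and 3 had an unadjusted p under 0.05, the smallest adjusted p was 0.0511 and the median log2 difference 0.16. Of the 3, ZFP36L1, which had that smallest adjusted p, was lower in T24R2 (log2 difference −0.85, SE 0.21). KLF10 (0.56) and PHLDA1 (0.62) were higher. EGR4, a zinc finger relative of EGR1, had a peak in no T24 and in 5 T24R2 libraries (two-sided Fisher's exact p = 0.00794, or 0.190 adjusted), and NR4A3, an orphan nuclear receptor, had 1 region with that pattern and a peak in 3 T24 and 5 T24R2 libraries. These 2 regions were of 46 in the list, against 3.02% of all regions. Of 10 known AP-1 target genes, 7 had a peak and 5 had one in all 10 libraries, with 0 called by limma, 1 at an unadjusted p under 0.05, and a median of 0.31. VEGFA, a vascular growth factor, had a log2 difference of 0.53 (SE 0.28, limma adjusted p = 0.389), and CD44, an adhesion receptor, one of −0.82 (SE 0.25, limma adjusted p = 0.117). Covered length was higher in T24R2 at the adjusted threshold for 2 of 9 partners, 2 of 20 immediate early genes, 0 of 10 regulators and 2 of 7 targets, against the 15.4% of all genes. By percentage points these were JDP2 (3.67) and MAFF (12.2), EGR4 (13.5) and KLF10 (22.6), and PLAU (26.1) and CCND1 (11.04), each at an adjusted p of 0.0438 by the exact permutation test. MAFG, MAFF, ZFP36L1, KLF10, PHLDA1, PLAU and CCND1 were named after their values were seen.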

How the data were processed

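MeRIP-seq peak lists of 5 T24 and 5 T24R2 immunoprecipitated libraries were used; the input libraries enter only through the authors' peak calling. Per the methods and processing notes, the authors aligned reads to hg38 with STAR 2.7.0, kept uniquely mapped, deduplicated reads with SAMtools 1.10 and called peaks of each library over its input with MACS2 3.0.0a6. The deposited lists give positions, a score derived from the q-value (not used), a fold enrichment, which is the authors' ratio of IP over local input, and −log10 p and −log10 q values deposited with each peak (lowest −log10 q 2.00). They hold no reads, so depth and counting error are unknown. The deposited merged list has 43676 regions, identical to a merge of the 10 lists by bedtools 2.31.1.

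Positions are on hg38; of 129 sequence names in the lists, the 25 in the reference had no peak past their end. A peak belonged to a gene when its summit lay in a GENCODE 44 exon; it needed 1 bp to be in a region. Transcript positions are on MANE Select transcripts, with the stop codon in the CDS, and summits within 100 nt were 1 site. Sequences were read from GENCODE transcripts. Presence was tested by two-sided Fisher's exact test, covered length by the exact permutation test over all 252 assignments (smallest p 0.00794), and log2 of the highest fold, centred on library medians, by limma 3.58.1 (R 4.3.3), each adjusted by Benjamini-Hochberg over all features tested at a threshold of 0.05. No pseudocount was needed for the fold. The tests were tried on simulated data with planted differences. The labels do not say whether replicates are separate cultures, so p-values measure only the spread between these libraries.

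The 10 genes, the gene lists and the tests were chosen with earlier results of these data known. Named genes are the 10, genes with an exon under one of their summits, and from each list those passing the adjusted threshold in presence or fold or with a region in all libraries of 1 line only, or else the 2 with the highest mean fold percentile; CCDC85B, whose peaks reach FOSL1, and marker genes are named besides, of which 1 is not reported here. Alternatives were −log10 q of at least 5 or 10, a fold of at least 4, equal list lengths, leaving out each library, 50% cover of a region, assignment by overlap, other centring, summaries and tests, and a replicate block.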

Additional observations from a re-analysis of the deposited data

Results flagged for a closer look

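Within each line, the highest and lowest of the libraries were compared with the others by Dixon's test (critical value 0.71 for 5 libraries), over 38 groups of fold percentiles and covered lengths; chance flags about 1 in 20 groups. It picked out 3. T24 replicate 3 stood apart on FOSL1, with 10.6% of exonic bases under peaks against 0% in the other T24 libraries, where any value above 0 would have been picked out. T24 replicate 2 was low on JUNB, at 76.8% against 89.6% to 91.0%. T24R2 replicate 3 was low on JUND, at 67.7% against 81.8% to 85.4%, and is the T24R2 library in which the JUND peak was split.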

How the results depend on the processing

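Of 995 alternatives for single genes and regions, 963 stayed on the same side of the threshold without a turn of sign (a difference of 0 libraries has none), 4 moved past it, 13 fell short of it and 15 reversed. The Fisher's exact results among them could change only in sign, since their smallest adjusted p over all features was 0.158 or more in every setting. Cover could not gain a call in settings with 0 calls over all genes. The 963 is therefore no measure of stability. Raising −log10 q to at least 10 changed the regions in all T24R2 and no T24 libraries from 1320 to 640 (2 among the 10 genes in place of 1), and equal list lengths gave 556 (0 among the 10 genes, as with −log10 q of at least 5 or a fold of at least 4). Genes in more T24R2 libraries at an unadjusted p under 0.05 fell from 901 to 462 with equal lists. Of the 10 genes, 1 reached that limit with −log10 q of at least 5 or 10 or with assignment by overlap (807, 706 and 1056 of all genes higher in T24R2), and 0 to 1 when a library was left out. Fold calls went from 66 to 38 and 21 at −log10 q of at least 5 and 10, to 29 with equal lists, and to 0 by the permutation test of percentiles, where 932 had an unadjusted p under 0.05. JUNB was among the 932, at 24.85 percentile points higher in T24R2 (exact permutation p = 0.0476, adjusted p = 0.325).

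Calls of higher cover in T24R2 went from 2154 to 0 with −log10 q of at least 10, a fold of at least 4 or equal lists, and to 0 to 2459 when a library was left out, above 0 only without T24R2 replicate 3. Among the 10 genes the 1 call became 0 in those settings and with peaks assigned by summit only, a setting chosen after seeing the data (1944 of all genes), 2 by limma on log2(covered bases + 100) (3228 of all genes), and 0 to 4 when a library was left out, 4 without T24R2 replicate 3. With the replicate block, cover gave 0 calls over all genes and 0 among the 10, since its smallest p is 0.0625, and the fold gave 52. Same-numbered libraries correlated at r = −0.0493 to 0.123 in their deviations from line means, so the numbers were not taken as pairs.

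Leaving out a library gave log2 fold differences of −0.0242 to 0.247 for FOSL2, −0.0212 to 0.231 for EGR1, −0.0894 to 0.387 for JDP2 and −0.065 to 0.112 for MRTFB, and cover differences of −0.226 to 0.388 points for JUN, each with a change of sign and none past the threshold. With the mean fold over a gene's peaks JUND was at 0.11 and EGR1 at −0.14. With a fold of at least 4, the EGR1 5′UTR region differed by −1 library. The cause of these shifts was not tested. Depth is unknown, so how far it limits weak peaks, such as those on FOSL1, cannot be given.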
